A study of Mus musculus with 18 samples.

Results

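The cells described here are the erythroid cells (red cells and their late precursors) found in the single mouse glioma that was sequenced cell by cell on the 10x Genomics Chromium system. They were chosen by their haemoglobin share, as the barcodes in which the 4 adult haemoglobin genes Hba-a1, Hba-a2, Hbb-bs and Hbb-bt together made up 20% or more of the unique molecular identifiers (UMIs, 1 per captured RNA molecule), among barcodes with at least 500 UMIs, at least 300 genes and at most 20% mitochondrial UMIs. The rule found 142 such cells among 3320 kept barcodes, which is 4.28% (exact Clopper-Pearson 95% interval 3.61% to 5.02%, counting error only). Since the haemoglobin genes chose the cells, their levels in them are a description, and the results concern the genes outside these 4.

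The tumour was a Ras glioma, driven by HRasV12 together with dominant negative p53, in a mouse of the Boy/J strain that had received no drug. It was digested with collagenase IV, passed through a 40 µm filter and treated for 1 minute with a lysis buffer for red blood cells before the cells were captured, so the red cells counted here are those that were left after that step. A second Ras tumour library was made by Drop-seq. Bulk RNA was sequenced from Ras tumours of mice given vehicle (n = 4, also labelled untreated) or the CSF1R inhibitor PLX3397 (n = 4, 100 mg/kg by mouth each day from day 7 until the mice were moribund), and from cultured lines of Ras (n = 2) and PDGF (n = 3) tumours. CD11b-positive myeloid cells were isolated with beads from PDGFB-driven tumours of perfused mice after 3 days of PLX3397 (n = 2) or vehicle (n = 1) from day 14, also after lysis of red cells. Each single-cell method is represented by 1 library, so values from it carry counting error and no replicate error. Nothing beyond the mouse numbers in the library names states that the bulk libraries came from separate animals, and their p-values measure the spread between these libraries.

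Red cells mature from nucleated precursors that fill themselves with haemoglobin, a tetramer of alpha and beta globin chains each holding a haem group. The last precursor expels its nucleus and becomes a reticulocyte, which still carries RNA, finishes haemoglobin synthesis and then clears its mitochondria, ribosomes and remaining proteins through autophagy and ubiquitin. Haem is made by a chain of enzymes that begins with aminolevulinate synthase, encoded in red cells by Alas2, and ends with ferrochelatase, encoded by Fech, which inserts the iron.

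The promoters of the marker genes are shown first because they hold motifs that red cell genes are known for, and because the alpha pair and the beta pair differ in how alike their members are. The 120 bases before the RefSeq start on GRCm38.p6 are given in lower case, 5′ to 3′ on the strand of the gene. Capitals mark 4 motifs, each searched on both strands. GATAA is the core bound by GATA factors. The motif CACCC is bound by factors of the Klf family. The motif CCAAT is a promoter box of many genes. The motif ATATAA is a form of the TATA box. Matches can overlap or adjoin, as do CCAAT and its reverse in Hbb-bt.
Hbb-bs, chr7:103827929-103828048, minus strand: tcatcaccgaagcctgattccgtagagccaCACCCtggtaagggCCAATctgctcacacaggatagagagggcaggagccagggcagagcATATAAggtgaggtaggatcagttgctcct
Hbb-bt, chr7:103813924-103814043, minus strand: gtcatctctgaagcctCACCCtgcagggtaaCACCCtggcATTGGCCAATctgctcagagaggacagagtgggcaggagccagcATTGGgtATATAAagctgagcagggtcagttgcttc
Hba-a2, chr11:32296372-32296491, plus strand: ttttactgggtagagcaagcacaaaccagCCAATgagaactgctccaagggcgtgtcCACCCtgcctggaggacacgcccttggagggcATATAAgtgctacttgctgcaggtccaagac
Alas2, chrX:150547297-150547416, plus strand: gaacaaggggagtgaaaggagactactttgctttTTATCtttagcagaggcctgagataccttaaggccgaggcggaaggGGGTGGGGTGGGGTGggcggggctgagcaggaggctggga

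The promoter of Hba-a1, at chr11:32283552-32283671, matched that of Hba-a2 at 297 of 297 compared bases, shifted by 3 bases, and is therefore not printed. The 2 beta promoters shown matched at 91 of 118 aligned bases. CACCC occurred once in Hbb-bs and in each alpha gene, at 2 places in Hbb-bt and at 3 in Alas2. CCAAT and ATATAA were found in each of the 4 globin stretches and not in that of Alas2, and GATAA in that of Alas2 alone among the 5. This depends on the window, since GATAA occurred once in the 250 bases before the start of each of the 5. Of all promoters, 22.6% held it in 250 bases. Among all 32851 promoters of the RefSeq table, a window of the same 120 bases held CACCC in 31.7%, CCAAT in 21.3%, GATAA in 10.5% and ATATAA in 4.47%. These matches describe the letters in the window and say nothing of binding in these cells.

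The 10x library held 59.3 M UMIs (M, units of 1e6) in 4384 barcodes, of which 415867 UMIs came from the 4 haemoglobin genes, and 92.7% of those lay in the 142 cells. Without the filters, 154 barcodes reached a haemoglobin share of 20%, and 12 of them were left out: 9 for fewer than 300 genes and 3 for more than 20% mitochondrial UMIs. No barcode was shared between the 10x and the Drop-seq libraries. At least 1 haemoglobin UMI was seen in 46.7% of all kept barcodes. This share was 34.9% in 284 macrophage-like cells (median 2554.5 UMIs) and 37.6% in 85 neutrophil-like cells (median 3054 UMIs), types that do not make haemoglobin, and such UMIs are read here as background.

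Alas2, a marker that the rule did not use, bears on the erythroid label. It gave 878 UMIs in 105 of the 142 cells (73.9%, exact interval 65.9% to 80.9%) and 19 UMIs in 7 cells, or 0.220%, of the 3178 other kept barcodes. After each cell was thinned to 290 UMIs outside the haemoglobin genes, 66.9% of the erythroid cells and 0.0315% of the other barcodes still had an Alas2 UMI, and no macrophage-like or neutrophil-like cell had one at full depth. The label therefore rests on Alas2 as well as on haemoglobin in those 105 cells. In the 37 cells without an Alas2 UMI it rests on the haemoglobin share. Alas2 was found in 37.8% of the cells from 20% to under 50% haemoglobin and in 98.5% of those at 80% or more. Their median UMIs outside haemoglobin were 544 and 678, so Alas2 bears least on the cells of low haemoglobin share.

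Haemoglobin filled most of the RNA of the median cell and varied widely between cells. Its share ran from 20.5% to 90.8% with a median of 77.8% (quartiles 48.9% and 86.3%). The count of haemoglobin UMIs ran from 150 to 7409 per cell with a median of 2138.5, a 49.4-fold range. The UMIs outside haemoglobin ran from 421 to 3564 with a median of 614.5, an 8.47-fold range. The cells thus differed mainly in haemoglobin UMIs, on top of a small remainder. They had a median of 392 genes per cell, against 2884 in the other kept barcodes, and a median of 2870 UMIs in all, against 9647.5. The gene minimum of 300 lies close to this median, and the lowest cell had 302 genes. Mitochondrial genes made up a median of 1.34% of all UMIs, or 5.05% of the UMIs outside haemoglobin, against 6.35% of all UMIs in the other barcodes. Summed over cells, their share outside haemoglobin was 8.79% in the erythroid cells and 7.40% in the other barcodes. The order thus depends on the summary.

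Few barcodes lay between the erythroid cells and the rest. Of the others, 3146 had a haemoglobin share under 1%, 2 lay from 1% to under 5% and 30 lay from 5% to under 20%. Just outside the threshold stood cells at 18.4%, 19.2%, 19.4%, 19.5% and 19.7%, and just inside it cells at 20.5%, 20.9%, 23.8%, 24.7% and 27.1%. The lower edge of the class is thus a point in a thinly filled range.

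**Figure D1:**
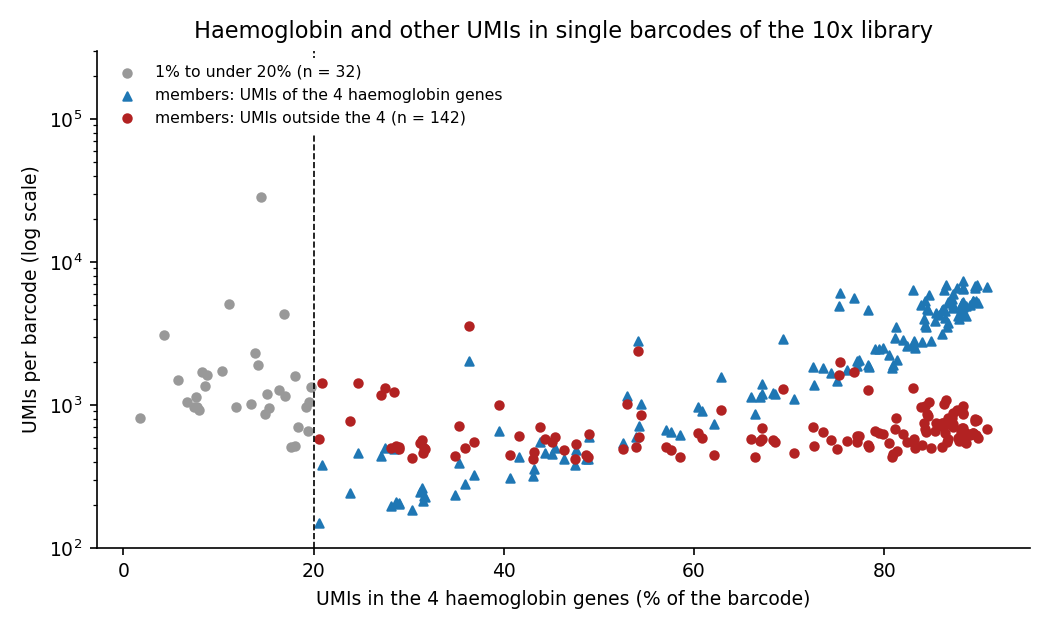
Each of the 142 erythroid cells is drawn as a triangle for its haemoglobin UMIs and a red point for its UMIs outside the 4 haemoglobin genes (log axis) against its haemoglobin share in percent, with the 32 barcodes between 1% and the dashed line at 20% as grey points for the UMIs outside. Haemoglobin UMIs range from 150 to 7409, while the other UMIs stay mostly near their median of 614.5.

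Within haemoglobin, beta UMIs outnumbered alpha UMIs in the sum over cells. Hbb-bs, an adult beta chain, made up 61.8% of the UMIs of the 4 genes, Hba-a1 16.8%, Hba-a2 12.5% and Hbb-bt, the second adult beta chain, 8.94%. The ratio of alpha to beta UMIs was 0.414 in the erythroid cells and 0.380 in the haemoglobin of the other barcodes. Their genes lie in pairs, Hba-a1 at chr11:32283511-32284465 and Hba-a2 at chr11:32296489-32297298, Hbb-bt at chr7:103812524-103813996 and Hbb-bs at chr7:103826534-103828096 (GENCODE M21, GRCm38). The longest protein-coding transcripts of Hba-a1 and Hba-a2 matched at 537 of 538 aligned bases, so how their UMIs were divided is uncertain. Those of Hbb-bs and Hbb-bt matched at 581 of 626 aligned bases, and over their last 150 bases, the end that a 3′ library reads, at 112 of 147, so the 2 beta genes are easier to separate.

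The mix of the haemoglobin genes varied between cells, given here as a description, since these UMIs chose the cells. Hbb-bt made up 0% to 24.9% of the beta UMIs of a cell, with a median of 9.24% and an SD over cells of 7.09 percentage points, where counting alone gives 1.42. Hba-a2 made up 32.8% to 54.8% of the alpha UMIs, with a median of 42.7% and an SD of 3.78 points, where counting gives 3.09. In the 65 cells at 80% or more haemoglobin, the SD of the Hba-a2 share was 2.63 points, where counting gives 1.44. The alpha share of all 4 genes had a median of 29.8% and ran from 12.2% to 63.4% (SD 7.74 points, counting 1.55). Hbb-bt was under 2% of beta UMIs in 28 cells and over 10% in 67 cells, limits that were chosen after the values had been seen.

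Over all 142 cells, those with more Hbb-bt also had higher levels of Alas2 and Bpgm, an order that did not hold for Alas2 at middle numbers of beta UMIs. Alas2 was present in 6 of the 28 cells with under 2% Hbb-bt (21.4%), in 37 of 47 cells from 2% to 10% (78.7%) and in 62 of 67 cells above 10% (92.5%). Its level, in UMIs per M UMIs outside haemoglobin, was 1144, 6182 and 11958 in that order. The level of Bpgm, which makes the bisphosphoglycerate that lowers the oxygen affinity of haemoglobin, was 542, 3173 and 11208. Malat1, a nuclear RNA, did not follow this order, with 8.96, 8.60 and 8.66 UMIs per cell.

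The same cells also differed in haemoglobin content, which was not held fixed. The median haemoglobin share was 45.9%, 77.1% and 85.5% over the groups of rising Hbb-bt, and the median number of haemoglobin UMIs 472, 2054 and 4622. Within the 65 cells at 80% or more haemoglobin, the level of Alas2 was 3714 in the 2 cells under 2% Hbb-bt, 11384 in 19 cells and 17592 in the 44 cells above 10%. Among the 43 cells with fewer than 600 beta UMIs, 25 had under 5% Hbb-bt and 11 had 15% or more, with few cells between. There Alas2 was found in 3 of the 25 cells under 5% and in 12 of the other 18, at 420 and 2691 UMIs per M. Among the 39 cells with 600 to under 2000 beta UMIs, Alas2 was found in 18 of the 25 cells under 5% Hbb-bt and in 12 of the other 14, and its level was higher in the former, at 5598 against 4275. The Spearman correlation over the 142 cells between the Hbb-bt share and the share of Alas2 among the UMIs outside haemoglobin was 0.573 (Pearson 0.473), against 0.0349 (0.0119) with Malat1. These cells come from 1 library and share its depth, so the correlations are a description.

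**Figure D2:**
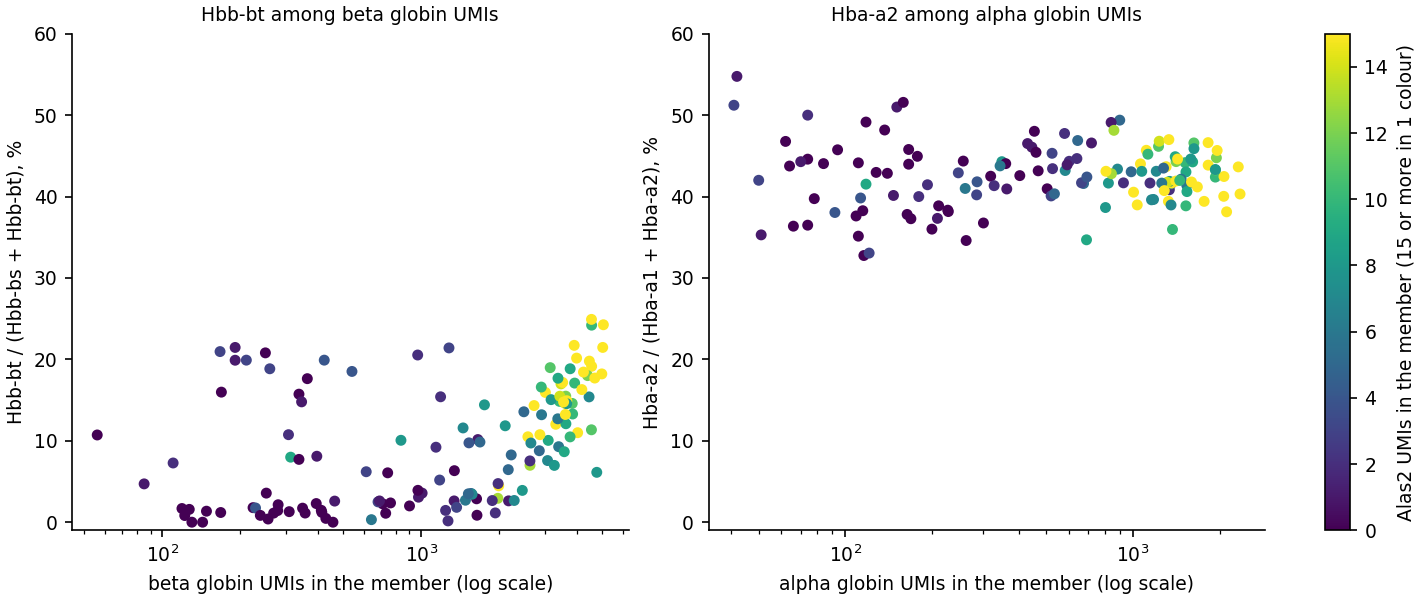
Each point is 1 of the 142 erythroid cells, with the Hbb-bt share of beta UMIs (left) and the Hba-a2 share of alpha UMIs (right) in percent against the number of beta or alpha UMIs (log axis), and colour for its Alas2 UMIs. The Hbb-bt shares spread from 0% to 24.9% and fall into a low and a high band where beta UMIs are few, while the Hba-a2 shares lie around 42.7%.

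Outside haemoglobin, RNAs for iron storage, haem synthesis and bisphosphoglycerate were among the most abundant. Ftl1, the ferritin light chain, gave 1180 UMIs, Alas2 878 and Bpgm 734 over the 142 cells, which placed Alas2 ninth and Bpgm eleventh among all genes outside haemoglobin. The predicted gene Gm42418 led with 9395 UMIs, and the mitochondrial gene mt-Atp6 followed with 1879. Tpt1, which encodes a translationally controlled protein, gave 1354 UMIs, and Malat1 gave 1235.

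Levels were then compared with those of the 3178 other kept barcodes, as summed UMIs per M UMIs outside haemoglobin. Of 12803 genes with at least 100 UMIs over all kept barcodes, 527 were 2-fold or more higher in the erythroid cells (4.12%) and 243 were 2-fold or more lower (1.9%). The median fold over these genes was 0.678. Genes are called higher or lower here by the size of the fold alone, since 1 library allows no test. Across 7 lists of red cell genes, 29 of 70 members with enough UMIs were higher and 2 were lower, with a median fold of 1.72, and 27 of the 93 listed genes in the table had no UMI in the erythroid cells. The lists and the cells were both chosen for red cell identity, and nothing is read from this excess. The scale matters here, because haemoglobin fills most of the erythroid UMIs. Per M of all UMIs, haemoglobin included, every fold is divided by 4.73 (2.24 on the log2 scale), and 33 genes were then higher and 6632 lower. Of the 29 red cell genes, 14 remained 2-fold higher on that scale, and Ftl1, Car2, Cat, Blvrb, Glrx5, Lmo2 and Cd34 stood below 1-fold. The folds that follow are on the scale without haemoglobin.

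The 20 genes with the highest folds made up 4.55% of the UMIs outside haemoglobin in the erythroid cells and 0.0644% in the other barcodes. They ranged from 24271-fold for Alas2 to 11.3-fold for Rsad2, an interferon-induced gene. In a single cell their share ran from 0% to 18.9% with a median of 2.37%, and 6 cells had no UMI of any of the 20.

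**Figure D3:**
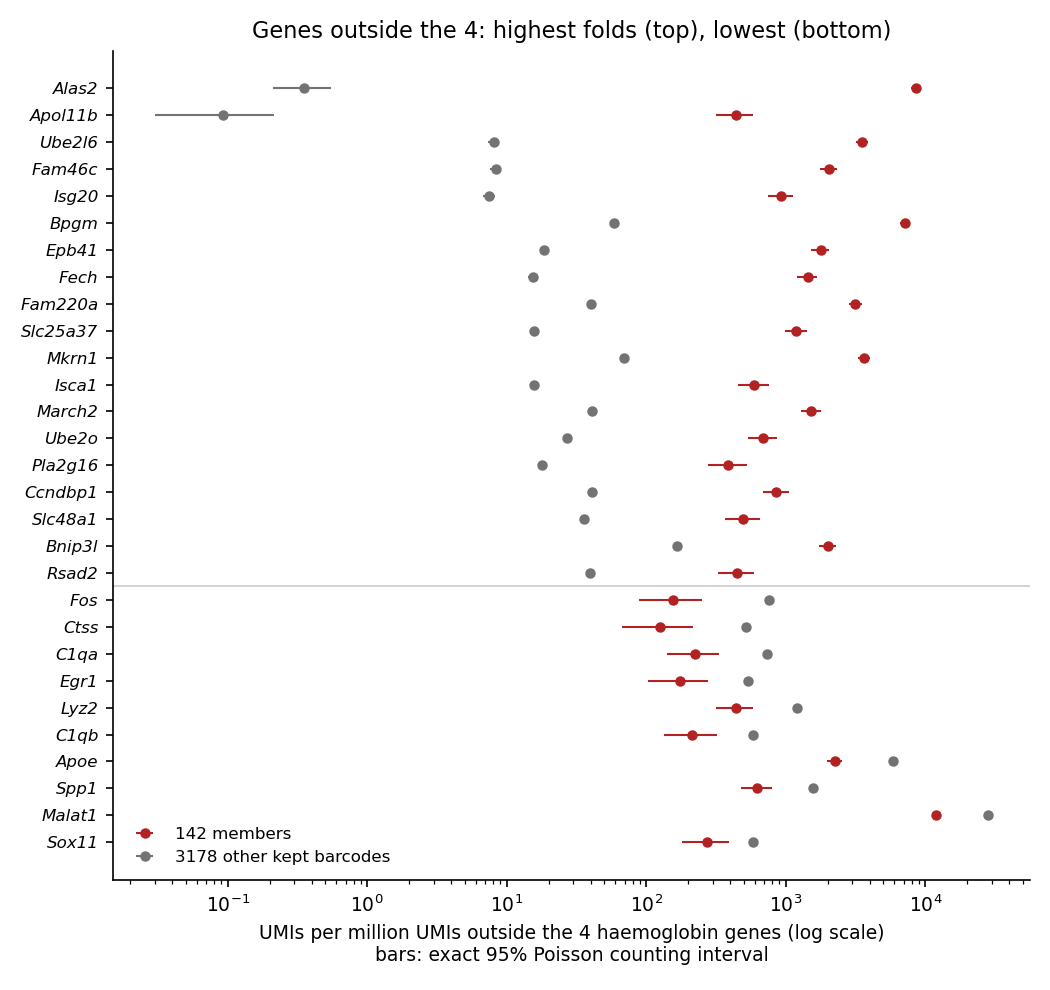
UMIs per M UMIs outside haemoglobin (log axis) in the 142 erythroid cells (red) and the 3178 other kept barcodes (grey), with exact 95% Poisson intervals that cover counting error, for 19 of the 20 genes with the highest folds and the 10 with the deepest falls. Alas2 stands at 8507 against 0.350, and Malat1, near the bottom, at 11966 against 28124.

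Of the 8 haem synthesis genes, the first and the last of the chain were higher and the enzymes between them were scarcely seen. Alas2 (chrX:150547375-150570638) stood at 8507 UMIs per M (exact Poisson interval 7953 to 9089) against 0.350, a fold of 24271 (15449 to 40509). Fech stood at 1434 against 15.3, a fold of 93.8 (78.2 to 112), and was found in 45.1% of the cells. Urod gave 5 UMIs, Alad and Ppox gave 2 each, and Uros and Cpox gave 0. With 103210 UMIs outside haemoglobin in all, 0 UMIs allow a level of up to 29.1 per M.

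Iron genes were high where they serve storage and mitochondria. Slc25a37, the mitoferrin that carries iron into mitochondria, stood at 1182 against 15.6 UMIs per M, a fold of 75.8 (62.2 to 91.8). Ftl1 was 2.94-fold higher (11433 against 3882; 0.62-fold per M of all UMIs), a level also found in macrophage-like cells (11534) and approached in neutrophil-like cells (8907), while Fth1, the ferritin heavy chain, was at 0.97-fold. The transferrin receptor genes Tfrc and Tfr2, through which red cell precursors take up iron, had no UMI in the 142 cells. This allows up to 29.1 per M each, against 11.6 and 0.849 in the other barcodes, so a fall was not detectable. Tmem14c, which moves a haem precursor within mitochondria, was lower at 0.21-fold on 3 UMIs. Isca1, which helps assemble iron-sulphur clusters, was 37.4-fold higher (591 against 15.8), and the haem transporter gene Slc48a1 was 13.9-fold higher (494 against 35.6).

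Membrane skeleton genes were led by Epb41, which ties spectrin to actin, at 1773 against 18.5 UMIs per M, a fold of 95.6 (81.2 to 112), with a UMI in 54.9% of the cells. Slc4a1, the anion exchanger of the red cell surface, gave 7 UMIs in 5 erythroid cells and 0 in the other barcodes. With a floor of 3 UMIs over all other barcodes it was 1226-fold higher, with a lower counting limit of 757-fold. Aqp1 and Tspan33 passed 2-fold on 3 UMIs each, and Cd47 was lower at 0.41-fold on 8 UMIs. Ank1, Sptb, Rhag, Rhd, Kel, Ermap, Dmtn and Kcnn4 had no UMI.

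Genes of red cell metabolism and of defence against peroxide were higher in 8 of 9 members with enough UMIs (4.12% of all genes), with a median fold of 4.38. Bpgm stood at 7112 against 58.4 UMIs per M, a fold of 122 (112 to 132), and was found in 65.5% of the cells. After thinning to 290 UMIs, 51.4% of erythroid cells and 1.67% of other barcodes had a Bpgm UMI. Gpx1, a glutathione peroxidase, was 7.87-fold higher on 236 UMIs. Hagh (8.73-fold), Car2 (4.38), the catalase gene Cat (2.74), Blvrb (2.66) and Glrx5 (2.64) were higher as well, although Car2, Cat, Blvrb and Glrx5 stood between 0.56-fold and 0.93-fold per M of all UMIs. Prdx2, a peroxiredoxin abundant in red cells, was at 1.25-fold, and Car1 and Pklr had no UMI.

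Among genes of organelle clearance and ubiquitin, 11 of 17 members were higher (4.12% of all genes), with a median fold of 8.45. Ube2l6, a conjugating enzyme for ubiquitin and the ubiquitin-like Isg15, stood at 3517 against 8.04 UMIs per M, a fold of 437 (379 to 504), and was found in 64.1% of the cells. Mkrn1, a ubiquitin ligase, stood at 3633 against 69.1 (52.6-fold), and Ube2o, which marks proteins for removal as reticulocytes mature, at 688 against 26.9 (25.6-fold). Bnip3l, which marks mitochondria for removal in reticulocytes, stood at 2006 against 167, a fold of 12.04. The autophagy genes Gabarapl2 and Map1lc3b were 9.05-fold and 4.89-fold higher, the ubiquitin ligase gene Rnf10 8.94-fold, Riok3 8.45-fold and Dcaf12 6.58-fold. The ubiquitin gene Ubb was close to the other barcodes, at 1.14-fold.

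The same list held Fam46c (also Tent5c), a poly(A) polymerase, at 2035 against 8.36 UMIs per M (243-fold, 206 to 287), and Isg20, an RNA exonuclease, at 920 against 7.42 (124-fold, 98.2 to 156). Among the top 20 outside the red cell lists, Apol11b, of the apolipoprotein L family, stood at 436 against 0.0922 (4727-fold) on 45 UMIs from 18 cells, and 1 cell gave 24.4% of them. Fam220a stood at 3149 against 40.0 (78.7-fold), March2, a membrane ubiquitin ligase, at 1521 against 40.8 (37.3-fold), and Ccndbp1, a cyclin D binding protein, at 853 against 40.9 (20.8-fold). Pla2g16, a phospholipase, was 21.7-fold higher, or 8.66-fold after thinning to 290 UMIs. Rsad2 was 11.3-fold higher (446 against 39.4), or 4.24-fold after thinning and 4.73-fold with cells weighted equally, and its level was highest in neutrophil-like cells, at 1441.

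Of 15 listed transcription factors of the red cell programme, 7 had no UMI. Gata1, Klf1, Tal1, Gfi1b, Bcl11a, Lyl1 and Cbfa2t3 had no UMI in the 142 cells, which allows up to 29.1 per M each. The other barcodes had at most 6.44 per M of any of them, so a difference was not detectable at this depth. Of 8 factors with enough UMIs over all barcodes, E2f2 was 21.8-fold and Lmo2 3.71-fold higher, on 7 UMIs each (4.60 and 0.78 per M of all UMIs). The genes of early progenitors Kit, Epor, Gata2, Myb and Sphk1 had none either, and Cd34 passed 2-fold on 4 UMIs (0.54-fold per M of all UMIs). None of 16 cell division genes was higher at 2-fold. Mki67 (0.19-fold), Cenpf (0.32) and Top2a (0.36) were lower and 13 were neither, with a median fold of 0.787. Summed per M, the 16 genes stood at 833 in erythroid cells against 1097 in the other barcodes. Their sum was 843 in macrophage-like and 1179 in unnamed cells. It was 276 in neutrophil-like, 209 in neuron-like, 187 in T and NK cell-like and 141 in B cell-like cells. The sum was thus not lower against each class. Of the other haemoglobin genes, Hbq1a and Hbq1b gave 19 UMIs each against 9 and 5 in the other barcodes, the embryonic Hbb-y gave 1, and Hbb-bh1, Hbb-bh2 and Hba-x gave 0.

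The deepest falls among abundant genes, against the mix of all other barcodes, were in immediate early, macrophage and nuclear RNAs. Not all of them hold against each class of cells. C1qa stood at 223 UMIs per M in the erythroid cells, at 5648 in macrophage-like cells and at 51.3 in neutrophil-like cells. Malat1 was at 14058 in macrophage-like cells and 53224 in neutrophil-like cells. The immediate early genes Fos and Egr1 stood at 0.203-fold and 0.325-fold. Ctss (0.244), C1qa (0.302), Lyz2 (0.365), C1qb (0.367), Apoe (0.379, 2238 against 5912) and Spp1 (0.396) are macrophage genes, and Sox11 (0.468) is a gene of neural precursors. Malat1 stood at 11966 against 28124 UMIs per M, a fold of 0.425, and Kcnq1ot1 (0.15), Neat1 (0.10) and Meg3 (0.30), other RNAs kept in the nucleus, were lower too. Per cell the gap in Malat1 was wider, with 8.70 UMIs in an erythroid cell on average against 479.7 in another barcode. That gap includes depth, since the median of UMIs outside haemoglobin was 614.5 in erythroid cells and 9647 in other barcodes.

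RNA of other cell types was present in the erythroid cells, with a glioma marker UMI in 94.4% of them and a macrophage marker UMI in 90.8%. The marker genes of 14 other cell types gave 1.22% of their UMIs outside haemoglobin, against 1.94% in the other barcodes, and 65 of the 126 markers had 0 UMIs. Summed per M, glioma markers stood at 5358 against 6296, macrophage markers at 3527 against 9162, microglia markers at 1192 against 1157, of which Sparc alone gave 1017 and 769, and neutrophil markers at 165 against 352. Platelet markers gave 2 UMIs, T and NK cell markers 1, B cell markers 1 and mast cell markers 0 over the 142 cells. S100a9 and Csf3r of the neutrophils, P2ry12 and Tmem119 of microglia and Adgre1 of macrophages were at 0. Of 93 markers with enough UMIs, 8 were 2-fold higher and 8 lower (4.12% and 1.9% of all genes), with a median fold of 0.494. The higher ones ran from Gfap at 2.01-fold to Mobp at 2.93-fold. The 6 UMIs of the endothelial gene Vwf came from 1 cell. The part of this RNA in the levels of other genes was not tested.

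The red cell genes were then followed over the haemoglobin share, in 37 cells from 20% to under 50%, 40 cells from 50% to under 80% and 65 cells at 80% or more. Alas2 stood at 1555, 3724 and 15768 UMIs per M UMIs outside haemoglobin in that order, and 37.8%, 67.5% and 98.5% of the cells had a UMI of it. Bpgm stood at 851, 2900 and 13587 and Ube2l6 at 407, 2109 and 6281. Mkrn1 differed mostly in the last step, at 407, 593 and 7546, as did Fam46c at 296, 692 and 3947. The total of UMIs outside haemoglobin differed little beside this, with medians of 544, 581.5 and 678. The 32 barcodes from 1% to under 20% had 177 UMIs per M of Alas2, and the 3146 under 1% had 0.111.

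RNAs of other kinds did not follow the red cell genes. Malat1 stood at 8.43, 8.68 and 8.86 UMIs per cell over the bands, against 484.2 in the deeper barcodes under 1% haemoglobin. Ribosomal protein genes took 12.6%, 11.5% and 10.5% of the UMIs outside haemoglobin (14.4% in the other barcodes), and markers of other cell types 1.45%, 1.31% and 1.03%. The 20 genes of highest fold took 0.692%, 2.12% and 8.44%. The cells at the lower bands thus carried less of the red cell RNAs and more of the markers of other cell types. Across the 142 cells the Spearman correlation of the haemoglobin share with the Alas2 share of the other UMIs was 0.787 (Pearson 0.656), a description over cells of 1 library in which the haemoglobin share also chose the cells.

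**Figure D4:**
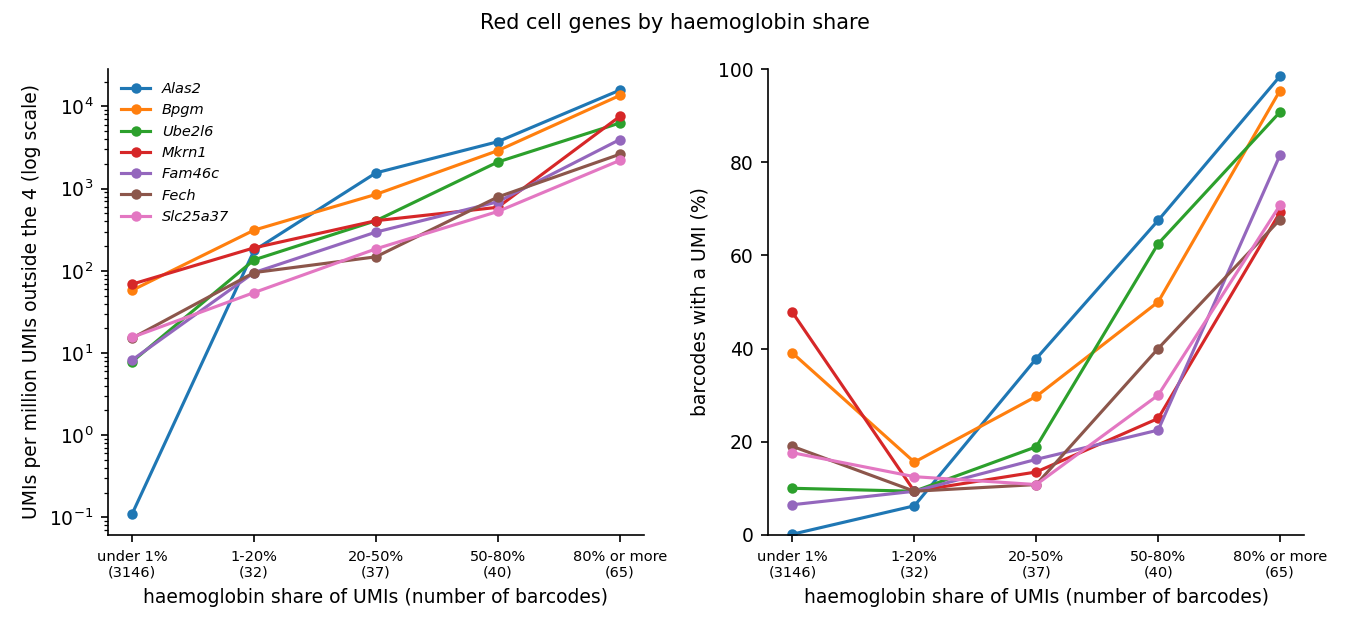
Level (left, UMIs per M UMIs outside haemoglobin, log axis) and percent of barcodes with a UMI (right) for 7 red cell genes, over 5 ranges of the haemoglobin share with the number of barcodes in brackets. The levels are higher in each successive range above 20%, with Alas2 at 1555 in the lowest and 15768 in the highest, and the barcodes under 1% have a greater depth.

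Single cells gave these RNAs in small numbers. Alas2 was at 0 UMIs in 37 cells, at 1 to 5 in 42 and above 5 in 63, with a median of 4 and a maximum of 22. Bpgm was at 0 in 49 and reached 52 and Ube2l6 was at 0 in 51 and reached 14. Malat1 was at 0 in 1 cell, with a median of 8 and a maximum of 31. A cell without a given red cell RNA is therefore not shown to lack it.

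The second Ras tumour library held no such cells. Under the same 20% rule, 0 of 4901 Drop-seq barcodes with at least 300 UMIs and 200 genes qualified, which allows a share of up to 0.0612%, and the highest haemoglobin share of a barcode was 0.131%. Its 9.67 M UMIs included 30 of the 4 haemoglobin genes, or 3.1 per M, against 7013 per M in the 10x library, and 1 UMI of Alas2. A haemoglobin UMI was seen in 28 barcodes (0.571%). Bpgm stood at 72.1 UMIs per M in Drop-seq and at 58.4 in the 10x barcodes that were not erythroid. Method and tumour piece cannot be told apart between these 2 libraries.

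Whether treatment of Ras tumours with PLX3397 changed the red cell genes was examined in the 8 bulk libraries, which the rule did not use, at 31.2 to 35.8 M counts each. In bulk tissue, fewer red cells and less RNA per red cell cannot be told apart. The 4 haemoglobin genes summed to 51.7, 66.8, 94.2 and 72.5 counts per M (CPM) in the vehicle libraries and to 5.15, 46.0, 37.2 and 74.6 in the PLX3397 libraries. The values were lower in most PLX3397 libraries, with PLX3397 library 1 far below the rest, and the groups overlapped. The sums were 0.376 to 0.503 CPM in the cultured Ras lines and 0.0879 to 0.459 in the PDGF lines, which are grown without blood.

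No red cell gene passed the test. By edgeR's quasi-likelihood test with Benjamini-Hochberg adjustment, 0 of 18366 genes were called (0%), 648 had an unadjusted p under 0.05, and DESeq2 called 174. Hba-a1 stood at 21.2, 24.4, 35.8 and 22.7 CPM under vehicle and at 2.26, 22.5, 11.0 and 29.4 under PLX3397, or 26.0 ± 6.63 against 16.3 ± 12.04 (SD, n = 4 each), a log2 fold of −0.70 with an SE of 0.63 (edgeR adjusted p = 0.9998). Hba-a2, Hbb-bs and Hbb-bt had log2 folds of −0.88, −0.93 and −0.99 with SEs of 0.61, 0.69 and 0.70 and the same adjusted p. Alas2 stood at 0.899, 0.706, 1.93 and 1.02 CPM under vehicle and at 0.477, 0.607, 0.559 and 1.36 under PLX3397, a log2 fold of −0.62 with an SE of 0.47, and its groups overlapped as well. In the cultured lines, Alas2 lay between 0.264 and 0.367 CPM on 9 to 12 counts.

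Single libraries moved these values either way without changing their sign. Without PLX3397 library 1, the lowest in haemoglobin, the log2 folds were −0.34 for Hba-a1, −0.52 for Hba-a2, −0.55 for Hbb-bs and −0.61 for Hbb-bt. Without PLX3397 library 4, the highest of its group, they were −1.15, −1.32, −1.41 and −1.54 in the same order. The log2 fold of Alas2 was −0.29 without vehicle library 3 and −1.07 without PLX3397 library 4. Over the 7 red cell lists, 0 of 79 tested genes were called, 32 had a log2 fold above 0 and 47 below, and their median was −0.02, against 0.0015 over all genes. DESeq2 called 1 of them, the red cell membrane gene Ermap, at 1.14, 0.738, 1.18 and 0.805 CPM under vehicle and 0.350, 0.243, 0.112 and 0.301 under PLX3397 (log2 fold −1.98 with an SE of 0.43, DESeq2 adjusted p = 0.0016, edgeR adjusted p = 0.415). Its groups did not overlap, which was so for 423 of the 18366 genes, and Ermap had no UMI in the erythroid cells of the 10x library.

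Most genes of high fold in the erythroid cells stood far above Alas2 in bulk tumours. Slc25a37 lay between 140.3 and 226.9 CPM under vehicle, Bnip3l between 122.6 and 176.3 and Bpgm between 37.0 and 49.2, whereas Apol11b and Slc4a1 had 0 to 7 counts in each library. The log2 folds were −0.02 (SE 0.31) for Slc25a37, 0.11 (0.18) for Bnip3l, −0.0042 (0.21) for Bpgm and −0.03 (0.14) for Fech, each with an edgeR adjusted p of 0.9998. The groups overlapped in each of the genes of high fold that the tumour table holds. Macrophage markers summed to 1697 to 4763 CPM under vehicle and 605 to 2676 under PLX3397, ranges that overlapped. All 12 of these markers had a log2 fold below 0, with a median of −1.36, against 0.0015 over all genes. EdgeR called 0 of the 12 markers, as it called 0 of all 18366 genes. Their part in the haemoglobin values was not tested.

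**Figure D5:**
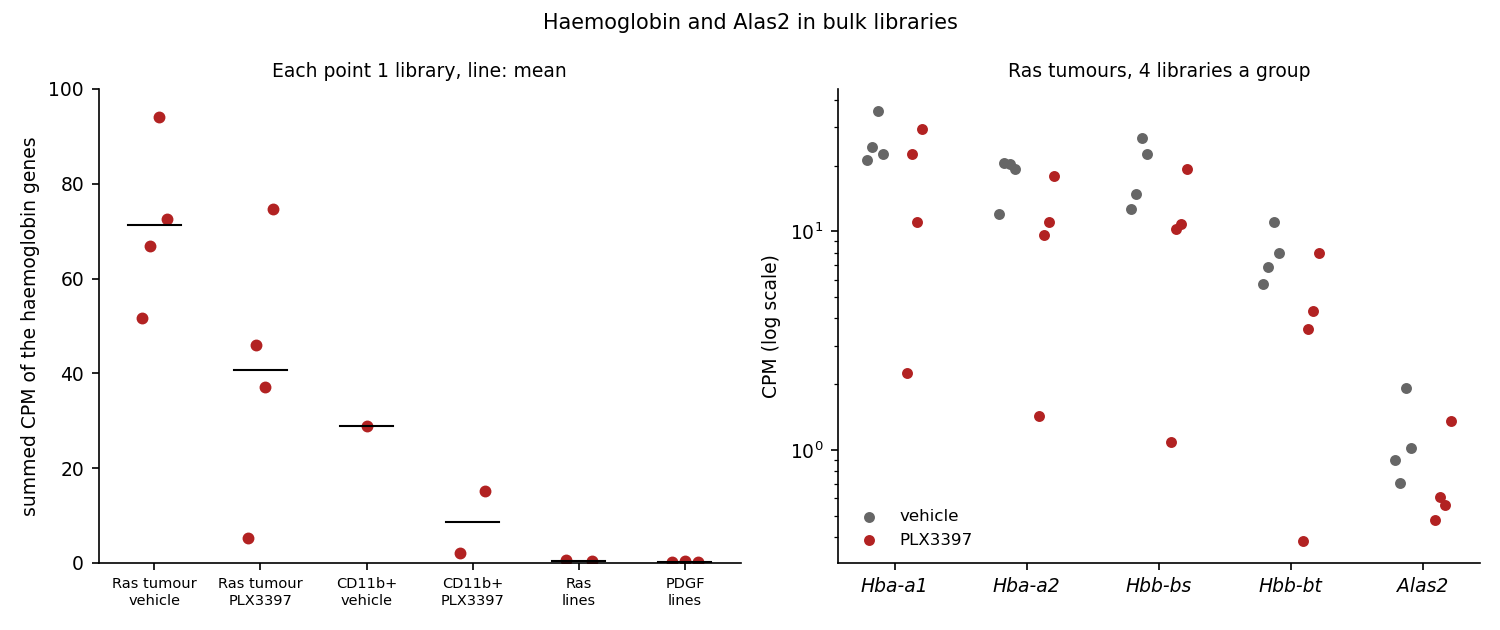
Left, summed CPM of the haemoglobin genes in each bulk library by group with the mean as a line (3 genes in the CD11b-positive cells, where Hbb-bt is not among the genes used); right, CPM of the 5 markers (log axis) in the Ras tumour libraries. The PLX3397 libraries reach from 5.15 to 74.6 and overlap the vehicle libraries, at 51.7 to 94.2, and the lines lie under 1.

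CD11b-positive cells of PDGFB tumours, 26.8 to 30.9 M counts per library, were examined for RNA of the red cell genes. Hba-a1 stood at 12.05 CPM under vehicle and at 0.859 and 6.59 under PLX3397 (log2 fold −1.75, SE 1.02, edgeR adjusted p = 0.320). Hba-a2 stood at 13.9 against 1.20 and 7.79 (−1.69, SE 0.96, edgeR adjusted p = 0.311) and Hbb-bs at 2.85 against 0.0747 and 0.699 (−2.90, SE 0.97, edgeR adjusted p = 0.139). These were lower in both PLX3397 libraries and did not pass the test. With 1 vehicle library, both PLX3397 values lay on the same side of it in 12481 of 15052 tested genes. Both alpha genes stood above Hbb-bs in each of these libraries, whereas Hbb-bs led in the erythroid cells of the 10x library. Alas2 lay at 0.389 against 0.373 and 0.433 CPM (log2 fold −0.01, edgeR adjusted p = 0.992). The fit has 1 residual degree of freedom, with the lone vehicle library assumed to vary like the PLX3397 libraries.

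In the same comparison, edgeR called 956 of 15052 genes (6.35%), 688 higher (4.57%) and 268 lower (1.78%). Of 78 tested genes of the red cell lists, 4 were called higher and 1 lower, a share near that of all genes. The water channel gene Aqp1 stood at 39.1 CPM against 201 and 194 (log2 fold 2.27, edgeR adjusted p = 0.031), Car2, a carbonic anhydrase, at 5.22 against 24.6 and 19.2 (2.00, 0.035), and Add2, an adducin of the membrane skeleton, at 1.43 against 5.98 and 8.02 (2.23, 0.0498). Steap3, which reduces iron in endosomes, stood at 18.4 against 38.2 and 42.8 (1.07, 0.046), and E2f2, a cell cycle factor, at 38.3 against 13.6 and 15.4 (−1.47, 0.035). Among the genes of high fold in the erythroid cells, Slc48a1 was called higher, at 94.1 CPM in the lone vehicle library against 203 and 199 (1.03, edgeR adjusted p = 0.042). The haemoglobin values of the same libraries were lower. In the 10x Ras tumour, Aqp1 stood at 29.1 UMIs per M in erythroid cells (3 UMIs) and 4.30 in other barcodes (233). Car2 stood at 242 (25 UMIs) and 55.3 (2999). Which cells gave the CD11b values was not tested.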

How the data were processed

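Single-cell values are UMI counts per gene and barcode and bulk values raw read counts per gene symbol, deposited without normalization by the authors. Per the submitters' processing notes, the tools were STAR 2.6.1e, Cell Ranger, featureCounts 1.6.2, FastQC 0.11.7, cutadapt 1.9.1 and Trim Galore 0.4.2, and the build GRCm38, and the 10x matrix names software version 3.1.0, per the file headers. The role of each tool was not given in the sources used here.

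The cells and gene lists were chosen with earlier results of these data known. UMIs were summed over cells per M UMIs outside the 4 haemoglobin genes (Python 3.11.15, scipy 1.17.1). Genes with 100 UMIs over kept barcodes were compared, and a lower call needed a level that predicts 10 UMIs in the erythroid cells. Named genes were the 5 markers, the 20 highest folds (30 UMIs, in 10% of cells, without predicted, mitochondrial and ribosomal protein genes), the 10 deepest falls from 500 per M, and leading list members. Intervals and floors (3 counts) cover counting error. Other cells were clustered with scanpy 1.11.5 (Leiden, resolution 0.5, 2000 genes, 30 components, 15 neighbours) and named from at least 3 markers. Doublets were not removed.

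Bulk counts were tested with edgeR 4.0.16 (quasi-likelihood, TMM, default filter, robust) in R 4.3.3, with DESeq2 1.42.0 as an alternative, on the libraries of each comparison alone, adjusted over all genes tested, and the steps were tested on simulated data. Left out were 27 entries with dates as names (at most 0.281% of a tumour and 0.360% of a line library), 1 unnamed entry and 5 columns of no sample. Hbb-bt in the CD11b table, March2 in the tumour table and Apol11b, Fam46c and Slc4a1 in the Drop-seq table were not analysed here. Matched replicate numbers did not pair the Ras libraries. Some genes of the lists are counted but not reported by name here. Promoter sequences matched 15 of 24 named genes.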

Additional observations from a re-analysis of the deposited data

Results flagged for a closer look

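In 4 gene and group combinations of the Ras tumour bulk libraries, 1 of 4 libraries stood apart from the others by Dixon's criterion, which chance alone meets in about 1 group in 20. The criterion was applied in both groups to the markers and to the genes of high fold that the tumour table holds. Some of the 4 can therefore be chance. Hba-a2 was at 12.1 CPM in vehicle library 1, with the nearest other vehicle library at 19.2. Alas2 was at 1.36 CPM in PLX3397 library 4, with the nearest other at 0.607. Isca1 was at 101.6 CPM in PLX3397 library 1, with the nearest other at 67.0. Slc48a1 was at 343.6 CPM in PLX3397 library 2, with the nearest other at 225.5. PLX3397 library 1 was thus the highest of its group in Isca1 and the lowest in haemoglobin, at 5.15 CPM.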

How the results depend on the processing

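The number of erythroid cells lay between 105 and 163 under other thresholds. Genes 2-fold higher and lower, 527 and 243, became 33 and 6632 with levels per M of all UMIs (red cell genes higher 14 in place of 29), 51 and 64 after thinning to 290 UMIs (12), and 119 and 29 at 4-fold. Fewer UMIs after thinning leave fewer genes with enough of them. Alas2 stayed between 5128-fold and 76755-fold.

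In the Ras tumours DESeq2 called 174 genes and the fit without a filter 1, in place of 0, with 1 red cell gene by DESeq2. Leaving out a library gave 0 to 0 calls for all genes and for red cell genes. The replicate block gave 0 calls (690 at unadjusted p under 0.05), with log2 folds of −1.15 for Hba-a1 and −0.65 for Alas2. The correlations of same-numbered libraries were 0.108, 0.132, −0.418 and 0.449. In the CD11b-positive cells, DESeq2 called 1995 genes and 10 red cell genes, and the fit without a filter 1907 and 11, in place of 956 and 5. The cause was not tested. Its fit without the vehicle library cannot be made, and without a PLX3397 library it leaves 1 against 1, a value with no test.

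Log2 folds near 0 changed sign. Bpgm was at 0.0081 by DESeq2 and 0.012 with RLE factors, Slc25a37 at 0.0022 and 0.0031. Leaving out 1 Ras library gave −0.021 to 0.56 for Ube2l6, −0.13 to 0.10 for Bpgm, −0.16 to 0.034 for Fech, −0.11 to 0.064 for Fam220a, −0.21 to 0.19 for Slc25a37, −0.28 to 0.056 for Mkrn1, −0.22 to 0.067 for Isca1, −0.070 to 0.36 for Ube2o and −0.16 to 0.15 for Slc48a1. The CD11b values were −0.025 to 0.070 for Alas2, −0.13 to 0.10 for Fech, −0.11 to 0.14 for Marchf2 and 0.014 to 0.10 for Rsad2.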
